A study of Mus musculus with 24 samples.

Results

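Cultures of brown adipocytes (BAT) were compared with cultures of white adipocytes (WAT) on day 3 of differentiation, both after a non-targeting control siRNA (siCtrl). A gene entered the comparison when its FPKM was 1 or more in at least 3 of these 6 libraries, which left 13120 of the 49452 genes in the table. FPKM is a level of fragments per gene that is corrected for transcript length and for library depth. The whole series holds 24 libraries, in which both depots were also sampled on day 0, before differentiation, and after an siRNA against H19, a maternally expressed long non-coding RNA.

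BAT siCtrl d3 and WAT siCtrl d3 held 3 libraries each. The cells were primary stromal vascular fraction, the mixture of precursors, fibroblasts and other non-adipocyte cells that collagenase releases from fat, and they came from male C57BL/6 mice. BAT cells were from interscapular brown fat and WAT cells from a depot that the labels call epididymal adipose tissue, the perigonadal visceral fat of males. Both received the control siRNA by nucleofection. Induction used insulin, dexamethasone, rosiglitazone and IBMX for WAT, and indomethacin and triiodothyronine for BAT. The labels give dexamethasone, rosiglitazone and IBMX for BAT too, whereas the study's methods can be read as naming them for white depots alone. BAT tissue was pooled where cells were few. After induction, WAT was kept with rosiglitazone and BAT with triiodothyronine, and BAT tissue was also digested with dispase. All BAT libraries belong to the library set MB-3 and all WAT libraries to the set MB-4, so depot, medium, digestion and library set coincide and cannot be told apart. The libraries were not described as separate animals, so p-values measure only the spread between these samples, which may be technical.

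Brown adipocytes burn fat for heat. UCP1 in their inner mitochondrial membrane lets protons return without making ATP, and many mitochondria and a high capacity for fatty acid oxidation feed the proton gradient. White adipocytes store triglyceride and secrete adipokines. The depots also differ in embryonic origin: interscapular brown fat arises from paraxial mesoderm, which also gives rise to the skeletal muscle of the back, whereas visceral fat is linked to lateral mesoderm and to the mesothelium that covers it.

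The 6 libraries were similar in summed FPKM and in the share of their most abundant genes. Summed FPKM was between 800852 and 826036, and the 10 most abundant genes took 14.12 to 14.99% of it. Genes at an FPKM of at least 1 numbered 12311 to 12429 in BAT and 13091 to 13125 in WAT. The deposited values were read as FPKM, and read depth is not known from them. The relative depth, read from the smallest steps in the values and set to 1 for BAT replicate 1, was 0.966 to 1 in BAT and 1.15 to 1.22 in WAT. Pearson's r across genes, on the log2 scale, was 0.982 to 0.984 between replicates and 0.912 to 0.915 between depots, and genes are not independent replicates. A value of 0 was not read as absence, because 208 genes with a mean FPKM of at least 5 in a depot were listed at 0 in a library of that same depot.

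At day 3, 6378 of 13120 genes differed between the depots at an adjusted p below 0.05 and a difference of at least 1.3-fold, by limma on log2(FPKM + 1) with Benjamini-Hochberg adjustment (48.6%). Of these, 2162 were higher in BAT (16.5% of genes tested) and 4216 were higher in WAT (32.1%). A difference of at least 2-fold was met by 2046 genes (15.6%), 575 higher in BAT (4.38%) and 1471 higher in WAT (11.2%). The median log2 difference, BAT minus WAT, was -0.159 over all genes tested, and it was -0.001 after trimmed-mean scaling of the libraries. That scaling left 6187 genes called of 13086 (47.3%) but changed the split, from 33.9% of called genes higher in BAT to 49.4%, with 3054 genes higher in BAT (23.3%) and 3133 in WAT (23.9%). At a difference of at least 2-fold the scaled values called 856 genes higher in BAT (6.54%) and 1193 higher in WAT (9.12%). No gene was called in opposite directions before and after scaling. The 3 libraries of a depot did not overlap with those of the other in 9238 of the 13120 genes (70.4%). All log2 differences below are BAT minus WAT after adding 1 to each FPKM, so those of weakly expressed genes are understated, and the median of each gene list is given after subtraction of the median of all genes. Each list count is to be read against 16.5% of genes higher in BAT and 32.1% higher in WAT. A member below 1 FPKM in every library of a depot could pass the filter only through the other depot, which fixed its direction in advance.

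**Figure D1:**
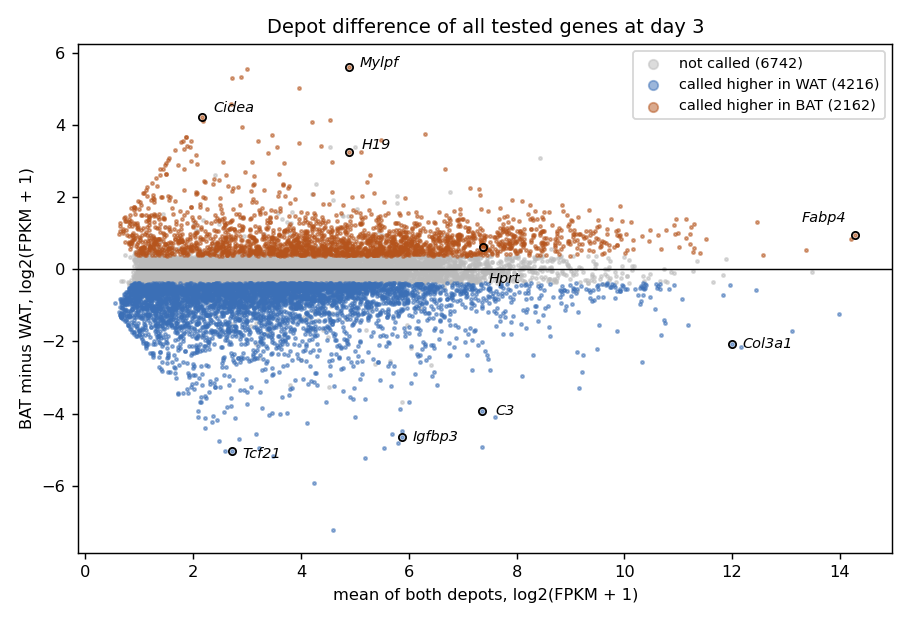
Mean level of both depots (horizontal axis, log2(FPKM + 1)) against the log2 difference BAT minus WAT (vertical axis) on day 3; each point is 1 of the 13120 genes tested, brown where called higher in BAT (2162), blue where called higher in WAT (4216) and grey where not called. The genes furthest from 0 are Mylpf at 5.6 and Calca, unlabelled at the bottom, at -7.22.

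The effector genes of brown fat were higher in BAT. Of 20 listed genes, 15 passed the filter on low values, 14 were called higher in BAT, none in WAT, and the median difference was 2.28. Ucp1 (chromosome 8: 83290352-83298452, GRCm38), the uncoupling protein itself, had 8.84, 11.2 and 16.3 FPKM in BAT and was listed at 0 in all 3 WAT libraries (adjusted p = 9.1e-06), so no fold is given. Cidea, a lipid droplet protein and brown fat marker, had 14.2, 19.5 and 21.6 FPKM in BAT against 0.12, 0 and 0 in WAT, a log2 difference of 4.21 (SE 0.157, adjusted p = 2.1e-06). For both genes the groups were far apart and BAT replicate 1 was the lowest of its group.

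Respiratory and oxidative members of the same list were expressed in both depots and differed in degree. Cox7a1, a cytochrome c oxidase subunit of muscle and brown fat, was at 268, 285 and 316 FPKM in BAT and at 22.4, 18 and 21.3 FPKM in WAT, 14.1-fold by the ratio of means (log2 difference 3.75, SE 0.094, adjusted p = 5.4e-07). Cpt1b, the carnitine palmitoyltransferase that admits long-chain fatty acids to mitochondria in muscle and brown fat, was at 148, 148 and 165 FPKM against 13.6, 9.92 and 12.3 FPKM, 12.9-fold. Elovl3, a fatty acid elongase of brown fat, was at 431, 491 and 488 FPKM against 128, 130 and 114 FPKM, 3.78-fold. Plin5, Kcnk3, Gk and Cox8b, which encode a droplet coat protein, a potassium channel, glycerol kinase and a further cytochrome c oxidase subunit, were higher in BAT by 2.94, 2.14, 2.12 and 1.99 on the log2 scale, without overlap. Acot11 was the tested member not called, with means of 1.73 FPKM in BAT and 2.24 in WAT.

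Dio2, the deiodinase that activates thyroid hormone inside brown adipocytes, varied widely between replicates. It had 34.4, 16.1 and 6.62 FPKM in BAT and 4.2, 0.527 and 3.45 FPKM in WAT, with a log2 difference of 2.34 (SE 0.664, adjusted p = 0.019). The call was lost without BAT replicate 1 (1.80) and without BAT replicate 2 (2.32). The lowest BAT value still exceeded the highest WAT value.

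**Figure D2:**
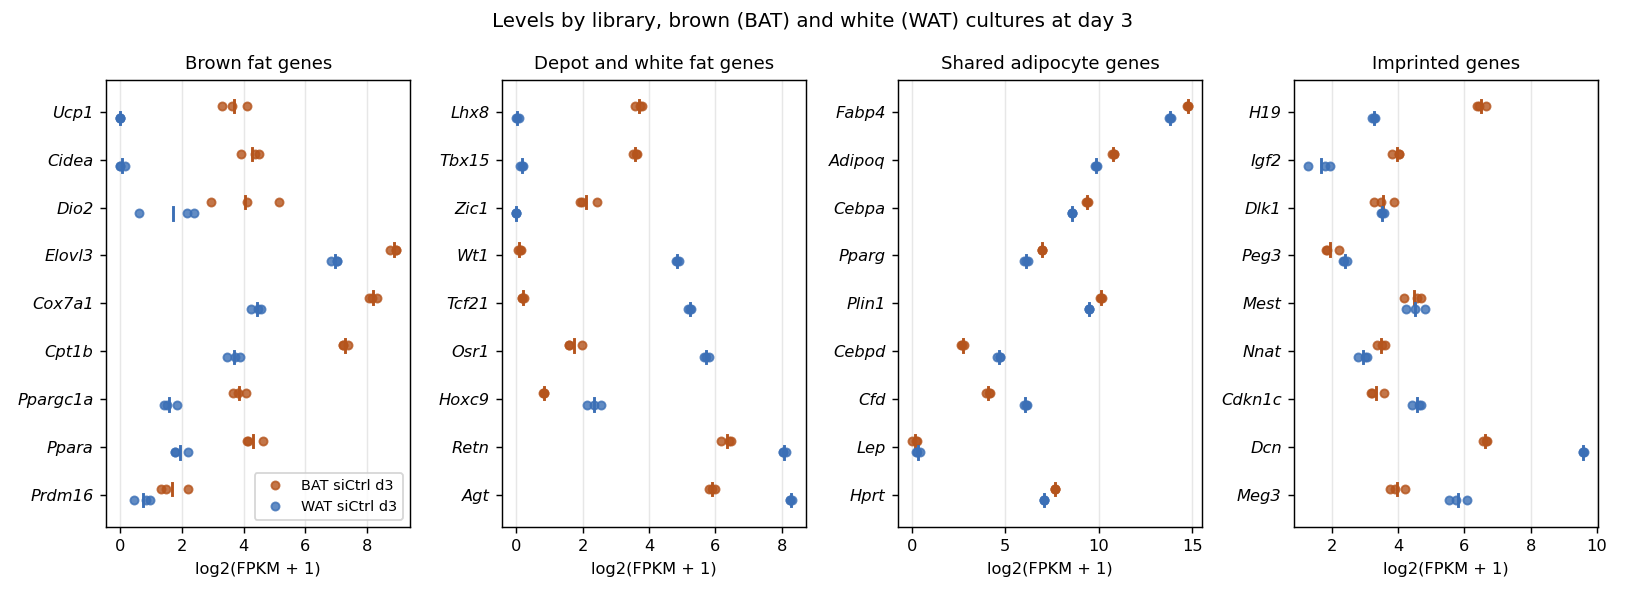
Level of 36 genes, as log2(FPKM + 1), in each of the 3 BAT (brown) and 3 WAT (blue) libraries of day 3, in panels of brown fat, depot and white fat, shared adipocyte and imprinted genes; points are libraries and vertical bars are group means. Ucp1, Cidea and Zic1 lie at or near 0 in WAT, Wt1 and Tcf21 lie near 0 in BAT, and Lep lies near 0 in both.

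Transcriptional regulators of brown fat were less uniform than its effectors. Of 18 members tested of 23 listed, 11 were higher in BAT and 3 were higher in WAT, with a median difference of 1.05, and trimmed-mean scaling left 1 of the 3. Ppargc1a, the coactivator that drives mitochondrial biogenesis, had 13.1, 15.8 and 11.6 FPKM in BAT and 1.87, 1.68 and 2.55 FPKM in WAT, 6.65-fold (log2 difference 2.26, SE 0.149, adjusted p = 2.2e-05). Ppara, a nuclear receptor for fatty acids, was at 16.7, 16.1 and 23.7 FPKM against 2.47, 3.59 and 2.46 FPKM. Ppargc1b and Esrra, its relative and an orphan nuclear receptor of mitochondrial genes, were higher in BAT by 1.96 and 1.57 on the log2 scale. These 3 coactivator and receptor genes were expressed in WAT as well, at means of 2.03 FPKM for Ppargc1a, 3.36 for Ppargc1b and 31.7 for Esrra.

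Determination factors of the brown lineage stood at widely different levels. Prdm16, which specifies brown over muscle fate, had 1.53, 1.78 and 3.62 FPKM in BAT and 0.943, 0.778 and 0.371 FPKM in WAT, a log2 difference of 0.92 (SE 0.253, adjusted p = 0.016) that lost its call without WAT replicate 3 (0.78). Ebf2, a precursor factor that marks brown fate, was steadier at 12.7, 12.7 and 12 FPKM against 5.13, 4.81 and 4.66 FPKM (log2 difference 1.2, adjusted p = 1.1e-05). Cebpb, an early adipogenic factor that partners PRDM16, was at means of 172 FPKM in BAT and 60.1 in WAT. Thra, the thyroid hormone receptor alpha, ran the other way, with 27.6, 26.8 and 28.4 FPKM in BAT against 52.7, 64.8 and 62.5 FPKM in WAT (log2 difference -1.09, adjusted p = 4.1e-05). Thrb, Hlx, Klf11 and Zfp516 were not called.

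Mitochondrial genes were higher in BAT with few exceptions. In the tricarboxylic acid (TCA) cycle and pyruvate entry list, 22 of 23 genes were higher in BAT and none in WAT, with a median difference of 1.29. In fatty acid oxidation 18 of 20 were higher in BAT and none in WAT (median 1.52). Of 70 nuclear-encoded subunits of the respiratory complexes 65 were higher in BAT and none in WAT, with a median of 1.00. Of 13 mRNAs encoded by the mitochondrial genome 11 were higher in BAT and none in WAT, also with a median of 1.00.

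Sucla2 and Ogdh, which act at neighbouring steps of the TCA cycle, were 3.24-fold and 3.19-fold higher in BAT. Hadhb, the beta subunit of the trifunctional protein of beta-oxidation, was at 792, 862 and 891 FPKM in BAT against 269, 246 and 227 FPKM in WAT, 3.43-fold. Etfdh, which passes electrons from beta-oxidation to ubiquinone, was 3.07-fold higher. The leading respiratory subunits were Uqcrfs1 and Uqcrc1 of complex III and Cox5a of complex IV, at 2.63-fold, 2.56-fold and 2.51-fold, below the folds of the oxidation enzymes just given, a contrast that was not tested.

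Transcripts of both genomes differed. mt-Nd1, a complex I subunit encoded in mitochondrial DNA, was at 8336, 9265 and 8953 FPKM in BAT and at 3806, 3610 and 3298 FPKM in WAT, 2.48-fold (adjusted p = 5.9e-06). mt-Nd2 was 2.64-fold higher and mt-Nd6, the subunit on the light strand, 2.15-fold higher. The summed FPKM of the 13 mitochondrial mRNAs was 46101 to 50225 in BAT and 24027 to 26505 in WAT, and the nuclear list summed to 47505 to 51173 against 27979 to 29805. In neither sum did the depots overlap. In bulk RNA of this kind, more cells of a type and more RNA per cell cannot be told apart.

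**Figure D3:**
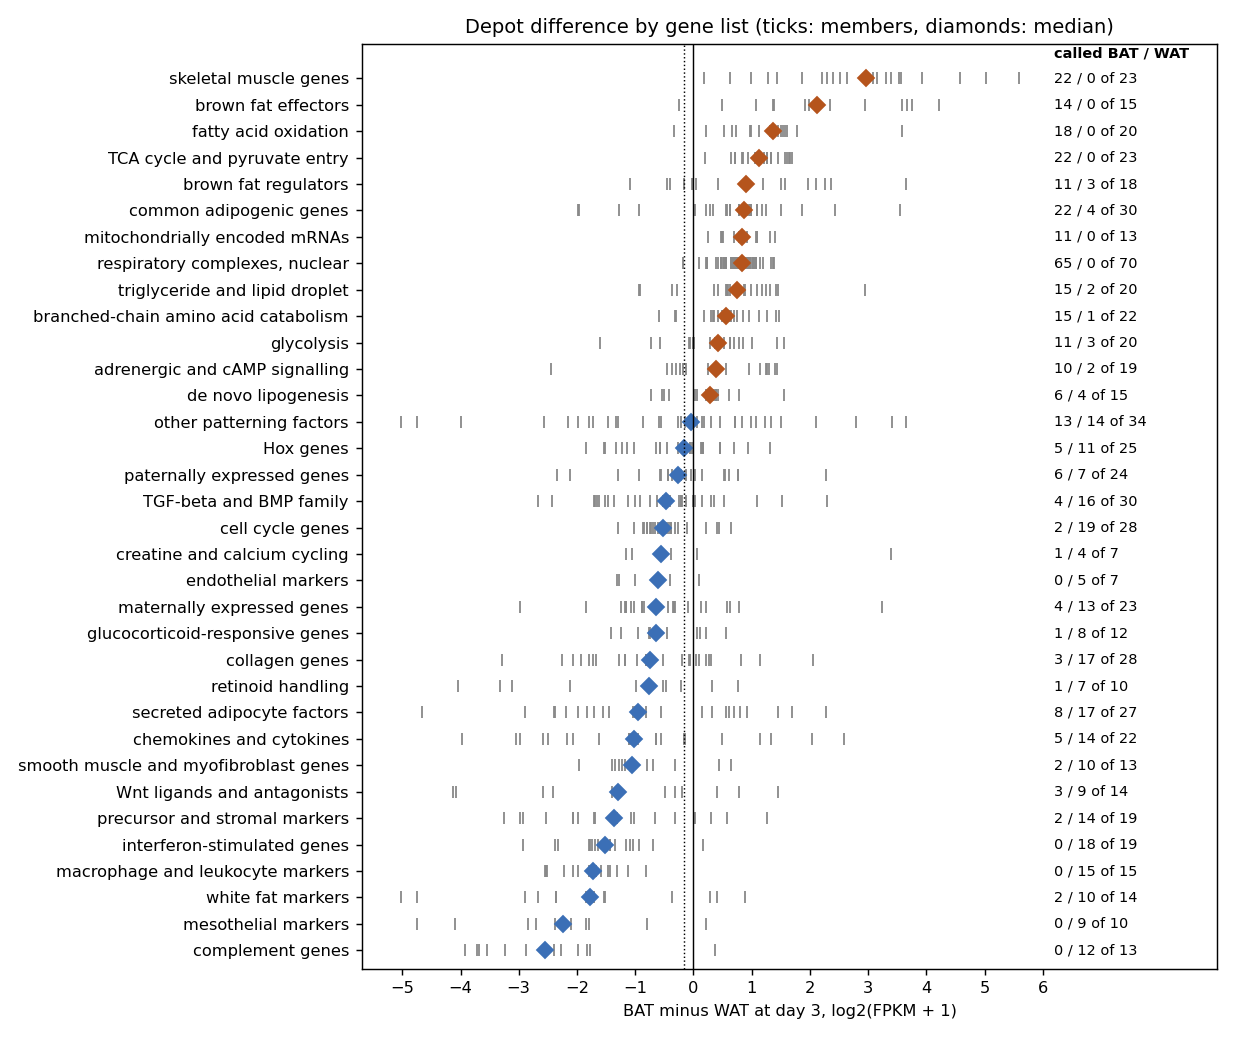
Log2 difference BAT minus WAT on day 3 for the tested members of the gene lists (grey ticks) with the list median (diamond, not corrected for the median of all genes), and the number called higher in BAT and in WAT at the right; the dotted line is the median of all genes, -0.159. Skeletal muscle, brown effector, fatty acid oxidation and TCA cycle genes have the highest medians, and complement, mesothelial and white fat genes the lowest.

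Most genes common to brown and white fat were higher in BAT. Of 30 listed, all passed the filter, 22 were higher in BAT and 4 in WAT, with a median difference of 1.03 (25 and 4 after trimmed-mean scaling). Fabp4, the fatty acid binding protein of adipocytes, was at 27184, 28419 and 27863 FPKM in BAT and at 14527, 14709 and 13958 FPKM in WAT, 1.93-fold (log2 difference 0.95, SE 0.035, adjusted p = 2e-06). Adiponectin, encoded by Adipoq, was at 1685, 1805 and 1791 FPKM against 940, 950 and 908 FPKM, 1.89-fold. The master regulators Pparg and Cebpa were 1.83-fold and 1.73-fold higher in BAT, at means of 124 against 67.8 FPKM and 656 against 380 FPKM. Each of these genes was thus abundant in both depots, and no libraries of the depots overlapped.

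Some members of the common list departed from that pattern. Pck1, the enzyme of glyceroneogenesis, was at 27.9, 30.7 and 33.2 FPKM in BAT and at 1.69, 2.07 and 1.36 FPKM in WAT, 17.9-fold. Aqp7, the glycerol channel, and Slc2a4, the insulin-responsive glucose transporter GLUT4, were 5.63-fold and 3.70-fold higher in BAT. Higher in WAT were Cfd (adipsin), with 70.6, 67.1 and 62.5 FPKM against 14.6, 17.2 and 16.5 FPKM in BAT, and the transcription factors Cebpd and Klf15, 4.40-fold and 2.60-fold.

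Most genes of triglyceride synthesis, lipid droplets and lipolysis, taken as 1 list, were higher in BAT. In the triglyceride and lipid droplet list 15 of 20 tested genes were higher in BAT and 2 in WAT, with a median of 0.90. Mgll, which cleaves monoacylglycerol in the last step of lipolysis, was at 513, 530 and 495 FPKM in BAT against 186, 192 and 193 FPKM in WAT, 2.69-fold. Enzymes of triglyceride synthesis were found in both directions. Lpin1 and Dgat1 were higher in BAT, at means of 124 against 44.6 FPKM and 491 against 267 FPKM, and the 2 genes higher in WAT were Dgat2, at 196, 212 and 177 FPKM against 100, 103 and 102 FPKM in BAT, and Gpam, at 260, 231 and 250 FPKM against 136, 132 and 122 FPKM. De novo lipogenesis was mixed, with 6 genes higher in BAT and 4 in WAT of 15, and 9 and 1 after trimmed-mean scaling. Acacb, the acetyl-CoA carboxylase on the mitochondrial surface, was 3.15-fold and Fasn, fatty acid synthase, 1.71-fold higher in BAT, whereas Elovl5 was 1.68-fold higher in WAT.

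Markers of white fat were mostly higher in WAT, whereas the leptin gene was close to 0 in both depots. Of 14 tested members of 15 listed, 10 were higher in WAT and 2 in BAT (10 and 3 after trimmed-mean scaling), with a median of -1.62. Leptin (Lep), which marks mature white adipocytes, did not reach the filter, with 0.351, 0.209 and 0.169 FPKM in WAT and 0.217, 0.0149 and 0.153 FPKM in BAT. Resistin (Retn) was at 262, 279 and 259 FPKM in WAT against 71.3, 83.6 and 88.1 FPKM in BAT (log2 difference -1.71, SE 0.081, adjusted p = 5.2e-06). Agt, the precursor of angiotensin, was at 317, 300 and 300 FPKM against 55.3, 62.7 and 58.1 FPKM. Nnmt, also used as a white marker, was at means of 358 FPKM in BAT and 292 in WAT, below the 1.3-fold minimum. Retn and Agt were thus higher in WAT, whereas Lep and Nnmt were not called. Npr3 and Psat1 were the 2 list members called higher in BAT, at log2 differences of 0.88 and 0.40. Wt1 and Tcf21 of the same list passed the filter only through WAT, which fixed their direction in advance.

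Depot-specific transcription factors higher in WAT ranged in BAT from 0 to clear expression. Wt1, the Wilms tumour factor of visceral fat and mesothelium, had 27.6, 28.8 and 27 FPKM in WAT and 0.0413, 0.103 and 0.077 FPKM in BAT, 377-fold by the ratio of means (log2 difference -4.75, SE 0.072, adjusted p = 1.4e-07). Tcf21, a factor of visceral mesenchyme, had 35.3, 36.7 and 37.5 FPKM against 0.177, 0.134 and 0.138 FPKM, 244-fold (chromosome 10: 22817279-22820128). Osr1, a factor of lateral and intermediate mesoderm, was at means of 52 FPKM in WAT and 2.35 in BAT. Gata6 was expressed in BAT as well, at means of 4.67 FPKM against 24.1 FPKM in WAT, and so was Nr2f2, with 14.7, 11.3 and 11.6 FPKM against 76.5, 81.4 and 77.2 FPKM (log2 differences -2.15 and -2.56). Alx1 and Bnc1 were listed at 0 in all BAT libraries and averaged 2.33 and 2.49 FPKM in WAT.

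Other patterning factors were higher in BAT. Lhx8, a LIM homeodomain factor, had 12.8, 12.3 and 10.9 FPKM in BAT and 0, 0.0258 and 0.0652 FPKM in WAT, a log2 difference of 3.65 (SE 0.090, adjusted p = 5.2e-07). Tbx15, a T-box factor of trunk mesenchyme, had 11.3, 10.4 and 11.4 FPKM against 0.0914, 0.141 and 0.164 FPKM, 83.7-fold. Zic1, a widely used marker of classical brown fat, had 4.42, 2.96 and 2.78 FPKM in BAT and was listed at 0 in all WAT libraries (adjusted p = 2.9e-05). Shox2, En1, Irx3 and Irx5 were higher in BAT by 2.79, 0.71, 1.23 and 1.5 on the log2 scale. Meox1, Pax3 and Pax7, factors of paraxial mesoderm, did not reach the filter and averaged 0.0908, 0.0214 and 0.01 FPKM in BAT. Meox2 of the same list was called higher in BAT, at means of 1.6 FPKM against 0.306 FPKM in WAT (log2 difference 0.99). On day 0 Meox1 was also called higher in BAT, at means of 4.65 FPKM against 0.642 FPKM in WAT. Of 34 patterning factors tested of 69 listed, 13 were higher in BAT and 14 in WAT, and the median, -0.04 as deposited, became 0.14 after trimmed-mean scaling, a change of sign.

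The Hox genes, which record position along the body axis, differed in both directions. Of 39 listed, 25 passed the filter, 5 were higher in BAT and 11 in WAT (5 and 10 after trimmed-mean scaling). The members higher in BAT carried low or middle numbers: Hoxa2, Hoxa4, Hoxb4, Hoxb5 and Hoxb8. Hoxa4 had 8.91, 7.8 and 8.28 FPKM in BAT and 3.04, 2.81 and 2.42 FPKM in WAT (log2 difference 1.32, SE 0.094, adjusted p = 3.1e-05). Those higher in WAT carried higher numbers, from Hoxa6, Hoxb6 and Hoxc6 up to Hoxa10 and Hoxc10, with Hoxb8 in the other group.

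Within the HoxC cluster the difference began between Hoxc5 and Hoxc6. Hoxc4 and Hoxc5 were not called, with means of 5.15 against 5.38 FPKM and 4.66 against 4.76 FPKM. Hoxc6 was at 15.2, 12.3 and 14.2 FPKM in BAT and at 30.3, 28.2 and 28.7 FPKM in WAT. Hoxc8 was at 9.09, 9.17 and 9.16 FPKM against 35.8, 36.9 and 34 FPKM, 3.89-fold higher in WAT (adjusted p = 9.2e-07), and Hoxc9 at 0.792, 0.756 and 0.798 FPKM against 4.04, 4.89 and 3.38 FPKM, 5.25-fold. Hoxc10 was near 0 in BAT and averaged 1.95 FPKM in WAT, and Hoxa10 was listed at 0 in BAT. The overlapping transcripts of these clusters can share reads, since strand use in the quantification is not given in the sources used here.

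**Figure D4:**
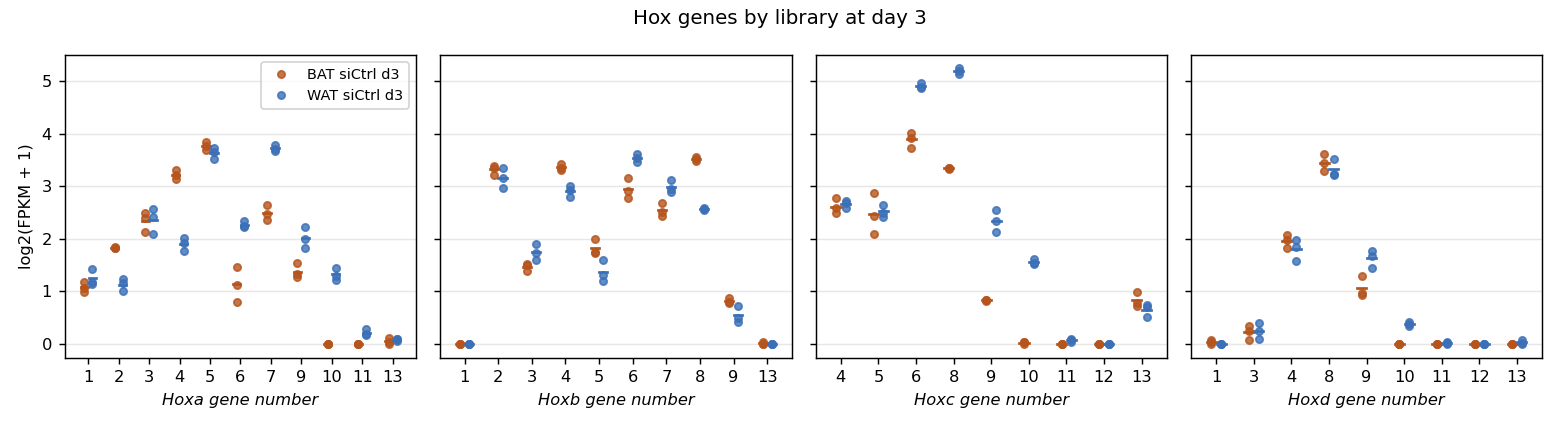
Level of the Hox genes on day 3, as log2(FPKM + 1), by cluster (panels) and gene number (horizontal axis), in the 3 BAT (brown) and 3 WAT (blue) libraries; points are libraries and horizontal bars are group means. Hoxc6, Hoxc8, Hoxc9 and Hoxc10 are higher in WAT without overlap, whereas Hoxa4 and Hoxb8 are higher in BAT.

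Skeletal muscle genes were higher in BAT. Of 34 listed, 23 passed the filter, 22 were higher in BAT and none in WAT, with a median of 3.13, the highest of all lists. Some of them, such as Myog, Myod1, Myh1 and Myh3, were below 1 FPKM in every WAT library. Such members could pass the filter only through BAT, which fixed their direction in advance. Mylpf, the fast myosin light chain, had 170, 187 and 217 FPKM in BAT and 1.97, 1.54 and 7.05 FPKM in WAT, 54.3-fold (log2 difference 5.6, SE 0.416, adjusted p = 3.7e-05), and led the genes higher in BAT. Myl1, Tnni1 and Tnnt3, further parts of the sarcomere, were 50.4-fold, 95.1-fold and 30.6-fold higher. Myog, the factor that starts muscle differentiation, had 10.8, 7.48 and 8.51 FPKM in BAT, and Myod1 had 2.21, 1.9 and 1.16 FPKM. Both were listed at 0 in every WAT library. Other members were expressed in WAT, with Des, the intermediate filament protein desmin, at means of 18.7 FPKM in BAT and 11.8 in WAT and Actn3, the tested member not called, at 5.82 and 5.03 FPKM.

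Summed over the list, the muscle genes reached 522 to 575 FPKM in BAT and 32.9 to 38.7 FPKM in WAT. Mb, myoglobin, was at 19, 14.9 and 19.3 FPKM against 0.101, 0.0517 and 0.0967 FPKM, and Atp2a1, the calcium pump of fast muscle, at means of 11.4 against 0.182 FPKM. Markers of muscle fibres were at different levels in BAT. Myh1, a fast myosin heavy chain, had 9.25, 6.66 and 6.91 FPKM there, Myh3, the embryonic one, averaged 10.7 FPKM and Tnnc2 12.4 FPKM, whereas Myh4 and Ckm averaged 0.121 and 0.518 FPKM. Pax7 and Myf5, markers of satellite cells and myoblasts, averaged 0.01 and 0.299 FPKM in BAT. Cox7a1, Cpt1b and Cox8b are also muscle genes, and the part of muscle cells in their difference was not tested.

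The gene with the largest difference, Calca, was higher in WAT. Calca, which encodes calcitonin and the peptide CGRP, had 284, 329 and 264 FPKM in WAT and 1.25, 0.903 and 0.768 FPKM in BAT, 300-fold by the ratio of means (log2 difference -7.22, SE 0.117, adjusted p = 1.5e-07). Slpi, a secreted protease inhibitor, was at 146, 153 and 133 FPKM against 0.614, 2.24 and 1.64 FPKM. Saa3, an acute-phase apolipoprotein, was at 891, 990 and 846 FPKM against 29.9, 24.5 and 32.1 FPKM. Sparcl1, Gdpd2, Pla1a, Cyp7b1 and Cyp2e1 were also among the 10 named genes furthest to the WAT side, 45.2-fold, 74.1-fold, 35.1-fold, 71.6-fold and 31.1-fold higher in WAT. The ranking was limited to genes whose libraries did not overlap between the depots, so that trait was fixed by the choice.

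Besides muscle genes and Cidea, the 10 named genes furthest to the BAT side held Rpl39l and Tmem45b. Rpl39l, a ribosomal protein gene similar in sequence to Rpl39, so that shared reads are possible, had 50.9, 52.5 and 56.7 FPKM in BAT and 0.0638, 0.114 and 0.306 FPKM in WAT. Tmem45b, which encodes a transmembrane protein, had 86.7, 97.5 and 105 FPKM against 3.67, 5.29 and 4.74 FPKM. Mir1894, Mir546 and Snord23 also ranked among the largest differences, but these are transcripts shorter than 200 bases with wide spread. Mir546 had 22.9, 50.5 and 73 FPKM in BAT and 17.6, 0.0335 and 0.00115 FPKM in WAT, and its log2 difference of 4.07 lost its call without BAT replicate 2 (3.97), BAT replicate 3 (3.71), WAT replicate 2 (3.38) or WAT replicate 3 (3.36).

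Most complement genes were higher in WAT. Of 16 listed, 13 passed the filter, 12 were higher in WAT and none in BAT, with a median of -2.39. C3, the central component, was at 649, 629 and 634 FPKM in WAT and at 39.9, 44.1 and 38.8 FPKM in BAT, 15.6-fold (log2 difference -3.93, SE 0.053, adjusted p = 1.1e-07). C7, of the terminal complex, was 23.5-fold higher. Activating components (C1ra, C1s1, C2, Cfb) and inhibitors (Serping1, Cd55) were therefore higher together, and Cd59a, an inhibitor of the terminal complex, had means of 7.06 FPKM in BAT and 5.22 in WAT. It was not called as deposited (log2 difference 0.37) and was called higher in BAT after trimmed-mean scaling (0.52, adjusted p = 0.0048), which made the list's counts 12 in WAT and 1 in BAT.

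Chemokines and cytokines were mixed. Of 22 tested, 14 were higher in WAT and 5 in BAT, with a median of -0.86. Il33, an alarmin of visceral stroma, had 41.6, 37.8 and 47.3 FPKM in WAT and 2.49, 1.82 and 1.07 FPKM in BAT, 23.5-fold. Cxcl12 and Cxcl16 were 8.05-fold and 12.4-fold higher in WAT. In BAT, Cxcl14 was at 19.5, 19.5 and 22 FPKM against 2.8, 2.61 and 2.3 FPKM, 7.92-fold, and Il1rn, the interleukin 1 receptor antagonist, was 4.72-fold higher.

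Interferon-stimulated genes (ISGs) are induced when the factor ISGF3 binds interferon-stimulated response elements in their promoters. Of 25 listed, 19 passed the filter, 18 were higher in WAT and none in BAT, with a median of -1.37. To show what their promoters share, the windows from 250 bases before to 50 bases after the RefSeq start (GRCm38.p6) were searched on both strands for the core GAAA, any 2 bases and GAAA, which on the other strand reads TTTC, any 2 bases and TTTC, overlapping matches included. It was found in 11 of the 16 tested ISGs with a promoter in the table (68.8%), in 280 of 9663 promoters of tested genes (2.9%) and in 943 of 27025 promoters in all (3.49%). Below are 5 of them, read 5′ to 3′ on the gene's strand with 20 bases on each side and the core in capitals, chosen for their motif after their values were seen: Isg15 at chr4:156200861-156200910 (minus strand), Bst2 at chr8:71537567-71537616 (minus), Gbp2 at chr3:142620584-142620633 (plus), Stat2 at chr10:128270256-128270305 (plus) and Ifit3 at chr19:34583353-34583402 (plus).
Isg15: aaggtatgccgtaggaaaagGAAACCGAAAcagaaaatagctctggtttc
Bst2: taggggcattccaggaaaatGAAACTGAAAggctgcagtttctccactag
Gbp2: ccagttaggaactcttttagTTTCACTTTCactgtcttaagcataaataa
Stat2: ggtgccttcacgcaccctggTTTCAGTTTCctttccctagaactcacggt
Ifit3: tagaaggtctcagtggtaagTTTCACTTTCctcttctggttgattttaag

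Isg15, Bst2 and Ifit3 hold further matches in the same window. A match in these letters is a description and not evidence of binding. Isg15, a ubiquitin-like modifier, had 17.2, 9.27 and 14.3 FPKM in WAT and 2.29, 1.4 and 1.95 FPKM in BAT (log2 difference -2.32, SE 0.227, adjusted p = 0.00014). Bst2, tetherin, had 56.9, 61.2 and 58.6 FPKM against 22.5, 15.5 and 15.4 FPKM, and Gbp2, a guanylate-binding protein with close relatives, 12.2, 11.4 and 12.4 FPKM against 2.87, 2.44 and 3.34 FPKM. Stat2, part of ISGF3 itself, had 9.97, 7.48 and 9.36 FPKM against 2.37, 1.98 and 2.14 FPKM. Ifit3, which binds viral RNA, was low in both, at 1.52, 1.05 and 2.13 FPKM against 0.411, 0.325 and 0.212 FPKM. The ERR element TNAAGGTCA was in 2 of 59 promoters of nuclear respiratory genes (3.39%), 1 of 20 of the TCA list (5%) and 0 of 17 of the fatty acid oxidation list, against 0.724% of promoters of tested genes, and the MEF2 element, CTA, any 4 bases and TAG, was in 1 of 18 promoters of muscle genes (5.56%) against 2.97%.

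Markers of macrophages moved with the WAT group. Of 18 listed, 15 passed the filter and all 15 were higher in WAT, with a median of -1.56. Their summed FPKM was 164 to 201 in BAT and 676 to 736 in WAT. C1qa, C1qb and C1qc, subunits of C1q made by macrophages, were 6.44-fold, 6.19-fold and 6.61-fold higher in WAT, and Lyz2 was at 421, 463 and 446 FPKM against 122, 116 and 148 FPKM. Ptprc, the pan-leukocyte CD45, and the lymphocyte markers Cd3e and Cd79a did not reach the filter, with Ptprc at means of 0.353 FPKM in BAT and 0.766 in WAT. The part of macrophages in the complement, chemokine and ISG differences was not tested.

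Mesothelial markers were close to 0 in BAT. Of 12 listed, 10 passed the filter, 9 were higher in WAT and none in BAT, with a median of -2.08. Wt1, Upk1b and Krt8, among others, were below 1 FPKM in every BAT library. They passed the filter only through WAT, which fixed their direction in advance. Their summed FPKM was 1.37 to 3.50 in BAT and 63.1 to 81.8 in WAT, although Wt1 made up 27 to 28.8 FPKM of the WAT sum. Upk1b, a uroplakin of mesothelium, had 17.9, 17.1 and 14.7 FPKM in WAT and 0, 0 and 0.0598 FPKM in BAT. Krt8 was listed at 0 in BAT and had 6.76, 2.46 and 1.98 FPKM in WAT, a spread that set WAT replicate 1 apart. Calb2 was listed at 0 in all 6 libraries, Msln was at means of 0.336 and 1.31 FPKM, and Krt19 was not called. The share of mesothelial cells in the WAT-higher genes was not tested.

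Markers of other cell types differed in both directions. Of 7 endothelial markers tested, 5 were higher in WAT (4 after trimmed-mean scaling), with sums of 36.3 to 43.1 FPKM in BAT and 41 to 48.5 FPKM in WAT. Cdh5 and Cldn5 were at means of 2.49 and 1.73 FPKM in WAT. Of 4 pericyte markers 1 was higher in each depot, Cspg4 in BAT (5.12-fold) and Kcnj8 in WAT (40.6-fold). The only Schwann cell marker tested, Mbp, was 1.55-fold higher in BAT and lost its call without BAT replicate 3 (0.36 on the log2 scale).

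Most genes of precursors and of the stroma were higher in WAT. Of 19 tested of 20 listed, 14 were higher in WAT and 2 in BAT, with a median of -1.21. Decorin (Dcn), a matrix proteoglycan that is also maternally expressed in placenta, had 786, 768 and 761 FPKM in WAT and 99.6, 101 and 92.8 FPKM in BAT, 7.90-fold (log2 difference -2.97, SE 0.041, adjusted p = 1.1e-07). Cd34, a surface marker of adipocyte precursors, had 20.1, 13.2 and 13.3 FPKM against 0.572, 0.641 and 0.899 FPKM, 22-fold, and Lum and Dpt, further matrix proteins, were 8.53-fold and 8-fold higher. Thy1 ran the other way, at 114, 107 and 116 FPKM in BAT against 44.7, 48.4 and 45.5 FPKM in WAT. Dlk1, the preadipocyte factor, was at means of 10.9 and 10.5 FPKM and was not called (log2 difference 0.03, SE 0.148).

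The collagens followed the stroma with exceptions. Of 28 tested of 44 listed, 17 were higher in WAT and 3 in BAT, with a median of -0.58. Col3a1, a fibrillar collagen of soft tissue, was at 8260, 7969 and 8904 FPKM in WAT and at 2109, 1919 and 1936 FPKM in BAT, 4.21-fold, and Col1a1 and Col1a2 were at means of 733 against 374 and 852 against 375 FPKM. Col5a3 was the leading exception, at 317, 324 and 329 FPKM in BAT and at 76, 78.9 and 76.5 FPKM in WAT (log2 difference 2.05, SE 0.034, adjusted p = 1.6e-07). Col6a3 was 2.24-fold higher in BAT, whereas its partners Col6a1 and Col6a2 were not called. Smooth muscle and myofibroblast genes were higher in WAT in 10 of 13 cases and in BAT in 2, with Mylk at means of 47.7 against 11.5 FPKM.

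Secreted factors were higher in WAT more often than in BAT. Of 27 tested of 31 listed, 17 were higher in WAT and 8 in BAT, with a median of -0.80. Igfbp3, which binds insulin-like growth factors, was at 290, 298 and 293 FPKM in WAT and at 10.9, 10.2 and 10.9 FPKM in BAT, 27.5-fold (log2 difference -4.66, SE 0.043, adjusted p = 4e-08). Apln, the peptide apelin, and Igf1 were 8.48-fold and 5.40-fold higher in WAT. Nrg4, a brown fat signal to the liver, was at 19.7, 21.4 and 21.7 FPKM in BAT against 5.79, 5.45 and 6.01 FPKM in WAT, 3.64-fold, and Fgf21 was at 6.1, 5.42 and 6.69 FPKM against 1.44, 2.11 and 1.23 FPKM. The 2 insulin-like growth factors were thus of opposite depots, Igf1 higher in WAT and Igf2 higher in BAT.

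Wnt and TGF-beta family genes differed member by member. Among Wnt ligands and antagonists 9 of 14 tested were higher in WAT and 3 in BAT. Wnt4 had 20, 20.1 and 20.6 FPKM in WAT and 0.272, 0.217 and 0.293 FPKM in BAT, 77.6-fold, and Rspo1, which amplifies Wnt signals, was 179-fold higher in WAT. Wnt5a, a non-canonical ligand, was at 12.7, 10.5 and 9.94 FPKM in BAT against 4.02, 3.07 and 3.07 FPKM. In the TGF-beta and BMP list 16 of 30 were higher in WAT and 4 in BAT. Inhbb, an activin subunit, was 7.23-fold higher in WAT.

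H19 was higher in BAT. It had 99.7, 86.4 and 83.2 FPKM in BAT and 8.67, 8.19 and 8.9 FPKM in WAT, 10.5-fold (chromosome 7: 142575529-142578143, log2 difference 3.24, SE 0.078, adjusted p = 4.8e-07). Igf2, its paternally expressed neighbour (chromosome 7: 142650766-142666816), was higher in the same depot, with 15.4, 13.1 and 15.2 FPKM against 1.44, 2.48 and 2.82 FPKM, 6.48-fold (adjusted p = 4.4e-05). Both genes were clear of overlap in these 6 libraries. The allele of origin is not measured by these data.

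Most maternally expressed genes (MEGs) went against H19. Of 23 tested, 13 were higher in WAT and 4 in BAT, with a median of -0.48. Cdkn1c, a growth-restraining inhibitor of cyclin-dependent kinases, had 23.6, 24.6 and 20.5 FPKM in WAT and 10.9, 8.31 and 8.02 FPKM in BAT, 2.53-fold. Meg3 and Rian, non-coding RNAs of the Dlk1-Dio3 cluster, were 3.76-fold and 2.30-fold higher in WAT by the ratio of means, and Grb10 was at means of 58.4 against 25.5 FPKM. The other MEGs higher in BAT were Nap1l4, Dhcr7 and Ube3a, at log2 differences of 0.79, 0.62 and 0.57. Igf2r was at means of 8.15 and 6.84 FPKM and was not called.

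Paternally expressed genes (PEGs) showed no common direction. Of 24 tested, 6 were higher in BAT and 7 in WAT (6 and 5 after trimmed-mean scaling), with a median of -0.11. Dio3, the deiodinase that inactivates thyroid hormone, had 44.9, 58.2 and 52.8 FPKM in WAT and 9, 8.41 and 10.8 FPKM in BAT, 5.54-fold, the opposite depot from Dio2. Ampd3 and Sgce were 4.77-fold and 2.53-fold higher in WAT. Nnat was 1.51-fold and Snurf, whose transcript is shared with Snrpn so that reads cannot be assigned with certainty, 1.70-fold higher in BAT. Peg10, Mest and Plagl1 were not called, and Peg3 (log2 difference -0.44) lost its call after trimmed-mean scaling (-0.30) and without BAT replicate 2 (-0.37), BAT replicate 3 (-0.39) or WAT replicate 1 (-0.40). Gpr1 stayed below the filter, with 0.0442 FPKM in a single WAT library and 0 in the other 5.

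Genes that respond to the hormones in the media were also examined. Of 12 glucocorticoid-responsive genes 8 were higher in WAT and 1 in BAT, with a median of -0.49. The metallothioneins Mt2 and Mt1, which can share reads, were at means of 2776 against 1042 FPKM and 1740 against 894 FPKM, and Dusp1 was 2.49-fold higher in WAT. Of 5 thyroid hormone-responsive genes tested 1 was higher in each depot, the one in BAT being Me1 (1.3-fold), which lost its call without BAT replicate 2 (0.37), BAT replicate 3 (0.34), WAT replicate 2 (0.38) or WAT replicate 3 (0.35). Triiodothyronine was named for the BAT medium alone and the sources differ on dexamethasone in it, and the part of the medium in the depot difference was not tested. Retinoid genes were higher in WAT in 7 of 10 cases and in BAT in 1.

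The depots were also compared on day 0, before differentiation. At day 0, 4096 of 13139 genes differed (31.2%), 1343 higher in BAT (10.2%) and 2753 in WAT (21%). Of 12366 genes tested at both days, 1947 were higher in BAT at day 3, and 325 of them (16.7%, or 28.1% of the genes higher in BAT at day 0) were so at day 0, while 369 (19%) were higher in WAT at day 0. Of 4024 genes higher in WAT at day 3, 1293 (32.1%, or 51.2% of those of day 0) were already higher at day 0, and 384 (9.54%) were higher in BAT. A term for the change of the depot difference from day 0 to day 3 was called in 7473 of 14111 genes (53%) at an adjusted p below 0.05 with no minimum fold.

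At day 0 no gene of the fatty acid oxidation, TCA cycle, nuclear respiratory or mitochondrial mRNA lists was higher in BAT, and 6, 3, 4 and 2 of them were higher in WAT. Cox7a1 had means of 2.1 FPKM in BAT and 1.94 in WAT on day 0, and Elovl3 0.102 and 0.268 FPKM. Of the common adipogenic genes 3 were higher in BAT and 14 in WAT, with Adipoq at means of 206 and 249 FPKM. The depot difference of Adipoq was 1.19 larger on the log2 scale at day 3 than at day 0 (SE 0.09, adjusted p = 9.6e-07) and that of Cidea 4.16 larger (SE 0.19, adjusted p = 2.6e-08).

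Skeletal muscle genes and some patterning factors already differed at day 0. The change of the depot difference between the days was called in 7 of 25 muscle genes and in 27 of 42 patterning factors, against 53% of all genes. Of the skeletal muscle list 21 genes were higher in BAT at day 0 and 1 in WAT, with Mylpf at means of 366 and 2.82 FPKM and Myog at 14.3 FPKM in BAT and 0 in WAT. Wt1 was at means of 34.1 FPKM in WAT and 0.149 in BAT, and its depot difference changed by 0.19 between the days, which was not called. Lhx8 (0.06), Zic1 (-0.17) and Hoxc9 (-0.26) also had no called change of the depot difference, whereas that of Tbx15 changed by -0.89 (adjusted p = 1e-05). Osr1 was at means of 12.1 FPKM in BAT and 16.2 in WAT on day 0, and its log2 difference went from -0.39 to -3.99. The log2 differences of Prrx2 and Irx1, 1.17 and 1.83 on day 0, were -0.21 and 0.18 and not called on day 3. H19 was at means of 130 FPKM in BAT and 11.7 in WAT on day 0, and its depot difference changed by -0.11 on the log2 scale (adjusted p = 0.62). Of the smooth muscle genes 10 were higher in BAT and 1 in WAT on day 0, and the change of the depot difference was called in all 13, towards WAT.

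**Figure D5:**
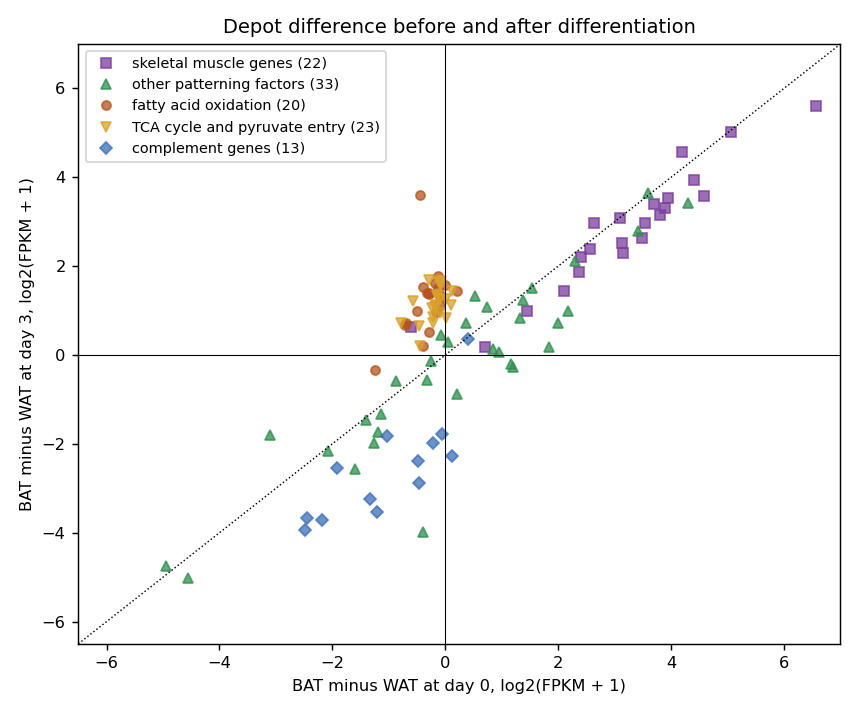
Log2 difference BAT minus WAT on day 0 (horizontal axis) against day 3 (vertical axis) for the members of 5 gene lists tested on both days; each point is 1 gene, its shape and colour give the list, and the dotted diagonal marks equal differences. Most skeletal muscle genes lie far to the right and near the diagonal, patterning factors lie on both sides of it, fatty acid oxidation and TCA cycle genes lie above it with day 0 differences near 0, and most complement genes lie below it.

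The depot contrast was repeated in the cultures treated with siH19, which share no library with the control contrast. There 5401 of 13121 genes differed (41.2%), 2090 higher in BAT (15.9%) and 3311 in WAT (25.2%). Of 2129 genes higher in BAT in the controls and tested in both, 1597 were higher in BAT after siH19 (75%, or 79% of the genes called there) and none was higher in WAT. Of 4134 genes higher in WAT, 2852 were again higher in WAT (69%, or 87.8%) and 11 were higher in BAT. The siH19 libraries belong to the same library sets as the controls, MB-3 for BAT and MB-4 for WAT, so this contrast has the same confounding.

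Of the brown effectors 12 were higher in BAT and 1 in WAT after siH19, against 14 and none in the controls. The one higher in WAT was Acot11, at means of 2.45 FPKM in BAT and 3.77 in WAT, and Dio2 was not called there (log2 difference 2.03, adjusted p = 0.11). Ucp1 averaged 2.85 FPKM in BAT after siH19 and was again listed at 0 in WAT, and Cidea averaged 3.99 FPKM in BAT, with 0 in WAT. The log2 difference of Cox7a1 was 3.04 and that of Cpt1b 2.88, against 3.75 and 3.59 in the controls, and the change of these differences with siH19 was not tested here. Wt1 (-4.69), Tcf21 (-5.35), Lhx8 (4.14) and Tbx15 (3.95) were called in the same directions. H19 itself was at means of 13.7 FPKM in BAT and 0.528 in WAT, so its depot difference was also found at these levels (log2 difference 3.28).

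Hprt, the gene to which quantitative PCR values were normalised in the study, was higher in BAT at day 3. It had 205, 205 and 201 FPKM in BAT and 135, 133 and 132 FPKM in WAT, 1.53-fold (log2 difference 0.61, SE 0.031, adjusted p = 6.9e-06). At day 0 its means were 85.6 and 90.9 FPKM and it was not called, and the change of the depot difference was 0.70 (SE 0.04, adjusted p = 3.3e-07). After siH19 the log2 difference was 0.67.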

How the data were processed

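RNA was isolated from cultured stromal vascular fraction cells and poly-A libraries were sequenced. Read layout is given differently in the labels and in the paper. The authors mapped reads with TopHat2 (2.0.10) to the mouse genome GRCm38 and quantified them with Cufflinks (2.2.1 in the submitters' processing notes). The deposited table does not name its unit, which was read as FPKM from the study's methods and from the values. Depth is unknown, so the precision rests on the replicates. No columns of comparisons made by the authors were used, and 0 columns lacked a sample. Control titles contain siKO, although their siRNA label reads non-targeting control.

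Gene symbols missing from the table were taken from GENCODE M21 by identifier, which gave 49198 of 49452 genes a symbol. Genes whose FPKM was 1 or more in at least 3 of the 6 libraries were tested on log2(FPKM + 1) with limma (3.58.1, R 4.3.3; moderated test with intensity trend), with Benjamini-Hochberg adjustment over all genes tested; a gene was called at an adjusted p under 0.05 and at least 1.3-fold. The table held no counts, so no count test was run. The change of the depot difference between days was an interaction term over the 12 siCtrl libraries. Scripts used Python 3.11.15, numpy 2.4.6, pandas 2.3.3 and matplotlib 3.10.9 and were tested on simulated data.

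The members and gene lists were chosen with earlier results of these data known. The genes named were 31 fixed genes, the 10 called genes with the largest change each way (libraries not overlapping, mean FPKM of at least 5 in the higher group, no placeholder symbol) and the 3 called members of each list with the largest change each way. Other genes named were chosen after their values were seen. Foxc2, Foxf1, Acta1, Cdh15, Cox4i1 and Nesp were not analysed here, and the results of some other genes are not reported here. Alternatives were another pseudocount, filter, fold, scaling (trimmed mean, equal sums, protein-coding genes only), spread, replicate block and each library left out, and, chosen after seeing the data, an exon length of at least 200 bases. Promoter sequences are from RefSeq (GRCm38.p6).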

Additional observations from a re-analysis of the deposited data

Results flagged for a closer look

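In 18 of the 29 fixed genes tested, the depot difference at day 3 differed from that at day 0 by the interaction term over the 12 siCtrl libraries, against 7473 of all 14111 genes tested (53%). The log2 differences are BAT minus WAT, and the change is day 3 minus day 0. Among brown fat genes the change was 3.64 for Ucp1 (adjusted p = 3e-07), 4.16 for Cidea (2.6e-08), 3.77 for Dio2 (0.0017), 1.71 for Ppargc1a (0.00063) and 2.11 for Elovl3 (1.6e-07). All but Dio2 were below the filter in the day 0 comparison, and Dio2 went from -1.43 to 2.34. Among common adipogenic genes the change was 1.19 for Adipoq, 1.05 for Pparg, 0.46 for Cebpa and 1.3 for Fabp4. Adipoq, Pparg and Fabp4 had differences of -0.27, -0.18 and -0.35 at day 0, each under 1.3-fold and not called.

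Among depot factors Tcf21 changed by -0.46, from -4.56 to -5.03, and Tbx15 by -0.89, from 4.30 to 3.41. The imprinted genes flagged among the fixed genes all changed towards WAT, but the full lists went both ways. The change was called towards BAT in 5 and towards WAT in 10 of 25 PEGs, and in 5 and 10 of 27 MEGs. Of all genes tested, 24.9% were called towards BAT and 28.1% towards WAT. Igf2 changed by -0.71, from 2.99 to 2.28, Nnat by -1.91, from 2.45 to 0.53, and Dcn by -1.82, from -1.15 to -2.97. Peg10 changed by -0.76, from 0.54 to -0.21, Peg3 by -1.01, from 0.58 to -0.44, and Cdkn1c by -1.86, from 0.60 to -1.25. For Cdkn1c and Peg10 the difference was called at 1 of the days only. Hprt changed by 0.70, from -0.09 to 0.61.

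No library was examined for standing apart within its group, since groups of 3 are too small for that test.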

How the results depend on the processing

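The number of genes called at day 3 (6378) stayed within 1.5 times under every alternative but a fold of at least 2, which left 2046. The other counts at day 3 were 4636 with a pseudocount of 5, 6700 with 0.1, 6777 without a filter, 4772 with a filter at an FPKM of 5, 6187 with trimmed-mean scaling and 6372 with transcripts of at least 200 bases, and leaving out 1 library gave 6222 to 6325. Without 1 library the interaction count (7473) was 7030 to 7249, the day 0 count (4096) 3860 to 4013 and the siH19 count (5401) 5152 to 5347. Of 189 named genes, 140 kept their call, or lack of it, in every setting. In all, 103 of the values fell below the threshold in a setting, and 0 called values reversed. Most of these genes were named for a large called change in the same data, so this stability was partly fixed by their choice. Under the scalings 8 values were lost: Peg3, Zbtb16, Nrf1, Acss2, Pnpla3, Prkar1a and Kdm5d with the trimmed mean and Me1 with protein-coding genes only. Of the list counts, 110 moved by more than 1.5 times, mostly counts of a few genes. Same-numbered BAT and WAT libraries correlated by 0.081, 0.050 and 0.030 at day 3 in their deviations from the group mean, which cannot decide whether they were paired. Each library correlated best with its own number there, as a hint from the data. With the replicate block the counts were 6358 at day 3, 4042 at day 0, 5360 after siH19 and 7265 for the interaction.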

Other observations

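Fuel genes outside the mitochondrial lists also differed. Of 20 glycolytic genes 11 were higher in BAT and 3 in WAT, with a median of 0.59 above that of all genes. Pfkfb3, which makes the activator of phosphofructokinase, was at 112, 107 and 101 FPKM in BAT and at 33.5, 36.4 and 37.6 FPKM in WAT, 2.98-fold, and Hk2 was 2.86-fold higher in BAT. Slc16a3, the lactate exporter, was 3.51-fold higher in WAT. In branched-chain amino acid catabolism 15 of 22 genes were higher in BAT and 1 in WAT, led by Dbt and Bckdhb of the branched-chain dehydrogenase at 2.80-fold and 2.70-fold. Of 7 genes of creatine and calcium cycling tested 4 were higher in WAT and 1 in BAT, the latter being the muscle pump gene Atp2a1, and Ckb, the creatine kinase of brown fat, was 1.5-fold higher in WAT.

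Adrenergic receptors differed by subtype. Of 19 genes of adrenergic and cAMP signalling 10 were higher in BAT and 2 in WAT (12 and 1 after trimmed-mean scaling). Adra1a had 2.77, 2.59 and 2.81 FPKM in BAT and 0.284, 0.438 and 0.393 FPKM in WAT, whereas Adra1b had 2.23, 2.55 and 1.74 FPKM in BAT and 15.8, 16.5 and 16.1 FPKM in WAT. Adrb3, the beta 3 receptor of adipocytes, was not among the called genes, with means of 43.1 FPKM in BAT and 55.5 in WAT (log2 difference -0.36). Of 28 cell cycle genes 19 were higher in WAT and 2 in BAT (14 and 2 after trimmed-mean scaling), most by less than 2-fold. Among genes on the Y chromosome Ddx3y, Uty and Eif2s3y were not called, and Kdm5d (-0.49) lost its call after trimmed-mean scaling.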
